A study of Mus musculus with 2 samples.

Results

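Genes for small secreted or membrane-bound protease inhibitors of the Kazal, Kunitz and WAP (whey acidic protein) types were measured in mouse adipose tissue. The members were all genes whose symbol starts with Spink, Spint or Wfdc followed by a digit, plus Eppin and Slpi. This gave 37 of the 43346 mouse genes in the tables, with 12 Kazal genes (Spink), 5 Kunitz genes (Spint) and 20 WAP genes (Wfdc, Eppin and Slpi). Within these families the symbol alone decided, but the families themselves were selected on their TPM (length-scaled transcript abundance) in these same libraries, so levels are described and not tested. Polyadenylated RNA came from adipose tissue of a male adult C57BL/6J mouse aged 10 weeks, with no treatment or altered gene in the labels. The tissue was 1 biosample, sequenced as 2 technical libraries, so no condition was compared with another. Library 2 was performed later than library 1, and library and time of preparation cannot be told apart. The depot from which the fat was taken is not stated in the labels.

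Each of these inhibitor types is a short, cysteine-rich fold that disulfide bridges hold together. An exposed loop of the fold sits in the active site of a serine protease and blocks it. Several of these genes form clusters that arose by duplication, and many are known for expression in the male reproductive tract, where their products enter the duct fluid and coat sperm. Others act in epithelia generally, in skin, in the pancreas or in white blood cells.

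The coding sequences below show what the encoded proteins are built on, for the most abundant printable member of each family and for a further pair. Spink8 and Spink2 stand for the Kazal type, Spint4 for the Kunitz type and Wfdc10 for the WAP type, while Eppin carries both a WAP and a Kunitz domain. Capitals mark in-frame cysteine codons (TGT or TGC). The sequences come from the GENCODE M21 annotation of GRCm38, the assembly also called mm10. Spink8 and Spink2 are shown from start to stop codon, and the others as the in-frame stretch of 300 bases with the most cysteine codons.
Spink8, Kazal: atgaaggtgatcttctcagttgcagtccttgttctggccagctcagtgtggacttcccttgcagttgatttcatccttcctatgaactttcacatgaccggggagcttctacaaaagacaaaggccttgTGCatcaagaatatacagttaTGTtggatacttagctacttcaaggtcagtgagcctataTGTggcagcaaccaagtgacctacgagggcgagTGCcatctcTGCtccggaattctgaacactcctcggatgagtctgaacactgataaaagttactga
Spink2, Kazal: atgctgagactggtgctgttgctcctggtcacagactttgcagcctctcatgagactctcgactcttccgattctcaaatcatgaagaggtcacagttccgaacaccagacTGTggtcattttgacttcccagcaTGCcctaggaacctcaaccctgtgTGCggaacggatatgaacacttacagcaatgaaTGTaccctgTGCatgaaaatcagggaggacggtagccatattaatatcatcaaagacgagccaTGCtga
Spint4, Kunitz: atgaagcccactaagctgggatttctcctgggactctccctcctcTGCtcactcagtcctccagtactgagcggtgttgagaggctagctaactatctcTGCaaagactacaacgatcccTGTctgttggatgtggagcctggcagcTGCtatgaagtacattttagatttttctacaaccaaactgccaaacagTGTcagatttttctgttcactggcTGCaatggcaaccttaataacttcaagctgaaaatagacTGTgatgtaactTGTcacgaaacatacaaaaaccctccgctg
Wfdc10, WAP: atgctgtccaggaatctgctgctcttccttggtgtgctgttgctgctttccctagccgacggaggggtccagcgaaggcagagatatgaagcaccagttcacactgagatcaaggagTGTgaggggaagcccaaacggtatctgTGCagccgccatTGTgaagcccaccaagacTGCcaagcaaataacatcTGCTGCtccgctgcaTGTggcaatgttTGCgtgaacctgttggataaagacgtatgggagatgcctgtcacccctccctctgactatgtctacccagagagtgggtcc
Eppin, WAP with Kunitz: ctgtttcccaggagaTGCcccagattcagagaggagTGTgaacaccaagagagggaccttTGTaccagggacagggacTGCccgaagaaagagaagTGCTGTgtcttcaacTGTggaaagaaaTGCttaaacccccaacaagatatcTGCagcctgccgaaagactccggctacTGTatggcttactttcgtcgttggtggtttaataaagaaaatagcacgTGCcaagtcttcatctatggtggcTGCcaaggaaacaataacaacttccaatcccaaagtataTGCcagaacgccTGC

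The stretches begin at base 1 of Spint4, 1 of Wfdc10 and 82 of Eppin, counted from the start codon, and hold 8, 8 and 14 cysteine codons. Spink8 (ENSMUSG00000050074, chr9:109812280-109826633, plus strand) has 5 cysteine codons among 95, against 6 among 86 in Spink2 (ENSMUSG00000053030, chr5:77205107-77211471, minus strand). Spint4 (ENSMUSG00000017310, chr2:164698501-164702453, plus strand) and Wfdc10 (ENSMUSG00000070529, chr2:164656046-164657368, plus strand) have 8 each, and Eppin (ENSMUSG00000017733, chr2:164588343-164593594, minus strand) has 14. Among the 37 members, cysteine codons made up between 4.62% of codons in Spint2 and 13.5% in Wfdc5. Coding length ran from 192 bases in Wfdc21 to 3054 bases in Spink5, which strings many Kazal-type domains together and has 61 cysteine codons. The closest pairs by coding sequence were Wfdc17 and Wfdc18, identical at 79.7% of the longer sequence, and Wfdc6a and Wfdc6b at 79.2%. Wfdc6a and Wfdc6b were the members with fractional counts, which is how reads shared between genes appear, so their separate values are uncertain.

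Depth was 19256807 expected counts in library 2 and 19954869 in library 1. Mitochondrial genes and their copies on chromosome 1 took 15.9% of TPM in library 2, against 51.7% in library 1, which lowers the TPM of every other gene more in library 1. The label adipose was checked against markers. All 12 adipocyte markers reached 1 TPM in both libraries, with a summed level of 13287 TPM in library 2, against 7963 TPM in library 1. All 12 markers of the epididymal epithelium, the lining of the duct in which sperm mature, were detected as well, and summed to 54360 TPM in library 2, against 47831 TPM in library 1. The highest adipocyte marker was the fatty acid binding protein gene Fabp4, at 6105 TPM in library 2 against 4072 in library 1. The highest epididymal one was Gpx5, an epididymal glutathione peroxidase gene, at 15609.8 TPM in library 2 against 14177 in library 1. Testis germ cell markers reached 1 TPM in both libraries for 10 of 12 genes and summed to 1470 TPM in library 2 against 275 in library 1. Markers of the seminal vesicle and prostate summed to 5.28 TPM in library 2, against 7.05 TPM in library 1, and Pbsn, Sbp, Svs2, Svs3a and Svs4 were at 0 counts in both. In bulk tissue, fewer cells of a type and less RNA per cell cannot be told apart. The part of epididymal or germ cell RNA in the levels below was not tested.

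Inhibitor genes were widely detected, and several were abundant. In both libraries, 29 of the 37 members (78.4%) reached 1 TPM, against 30.5% of all mouse genes. Of the 37, 13 reached 100 TPM in both, against 609 of all 43346 genes. Taken singly, each library held 30 members at 1 TPM or more, against 36.8% of all genes in library 2 and 31.4% in library 1. These include Spink4 in library 2, from 5 counts, and Spink7 in library 1, from 2 counts. The members summed to 13845 TPM in library 2, against 7953 TPM in library 1, or 1.38% of all TPM in library 2 against 0.795% in library 1. When TPM was rescaled without the mitochondrial genes and their copies, the sums were 16456 in library 2 and 16465 in library 1. Kazal genes held 6814 TPM in library 2, against 5680.4 TPM in library 1. Kunitz genes held 1835.5 TPM in library 2 against 908 in library 1, and WAP genes 5195 TPM in library 2 against 1364 in library 1. Most of the Kazal sum lay in Spink8 and Spink11.

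**Figure D1:**
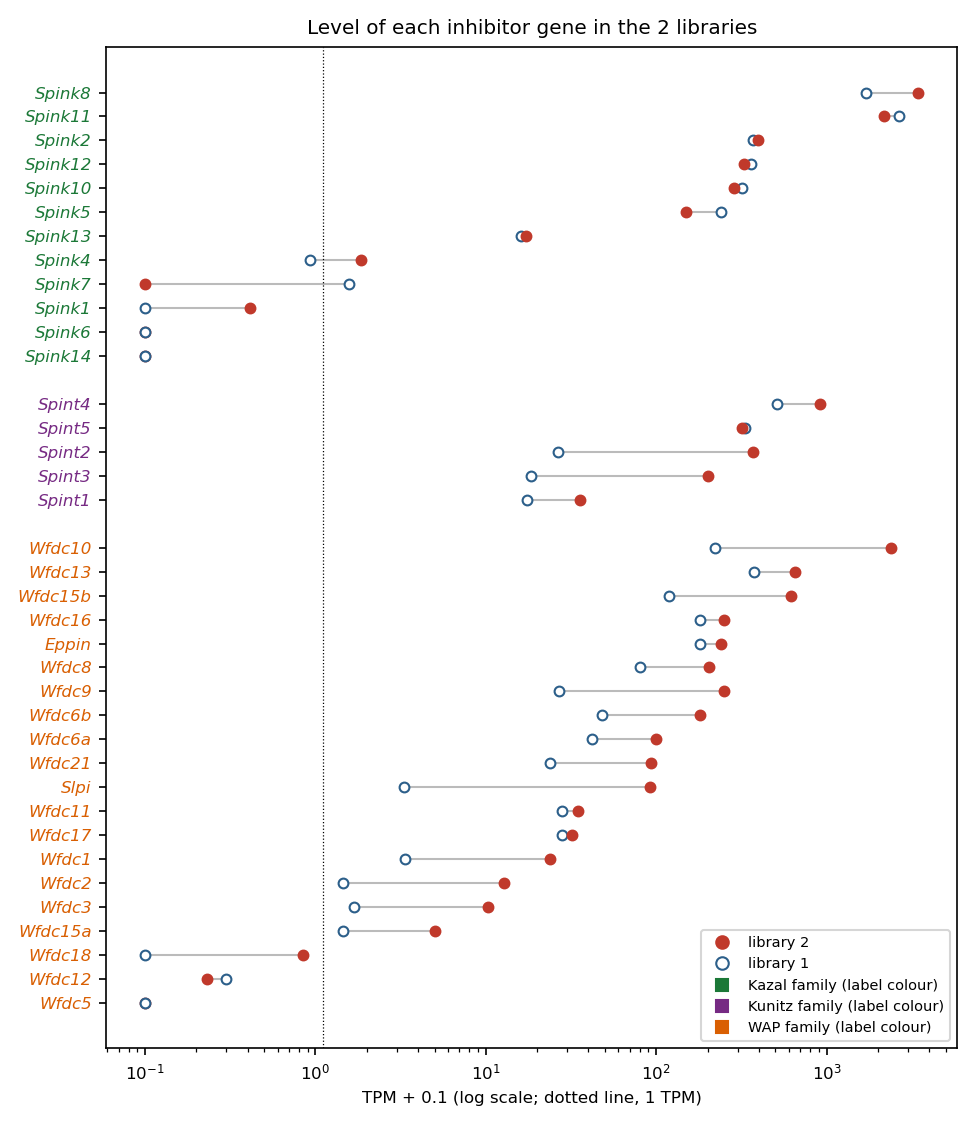
Level of each of the 37 members on a log axis of TPM + 0.1, with library 2 as filled points and library 1 as open points, grouped into Kazal, Kunitz and WAP genes in order of mean TPM. Spink8 and Spink11 lead the Kazal genes, Wfdc10 at 2400.05 TPM in library 2 leads the WAP genes, while Spink6, Spink14 and Wfdc5 lie at 0 in both.

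Among Kazal genes, Spink8 was the most abundant member of all by mean TPM, at 3456 TPM in library 2, against 1699.6 TPM in library 1. It had 22706 counts in library 2 and 14179 in library 1, and ranked 30 among all genes by TPM in library 2 and 45 in library 1. Spink11, on chromosome 18, was at 2181 TPM in library 2, against 2672 TPM in library 1. The order of these leading members thus differed between the libraries. Spink12 was at 329 TPM in library 2, against 361 TPM in library 1, and Spink10 at 285 TPM in library 2 against 318 in library 1. Spink2, which encodes an inhibitor of the sperm protease acrosin, was at 394 TPM in library 2, against 371 TPM in library 1. The 12 testis germ cell markers together summed to 1470 TPM in library 2 against 275 in library 1. Their levels moved unevenly: by scaled counts, described below, 6 gained 2-fold or more in library 2 and 1 lost as much. Prm2, at 57.9% GC content, was at 515.8 TPM in library 2 against 2.94 in library 1. Nearer to the 47.6% GC content of Spink2, Smcp (48.6%) was at 159.7 TPM in library 2 against 135.5 in library 1. Tnp1 (49.2%) was at 179.9 TPM in library 2 against 18.2 in library 1. Which cells the Spink2 RNA came from was not tested.

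Spink5 encodes LEKTI, an inhibitor of skin kallikreins whose loss causes Netherton syndrome in humans. It was at 149.6 TPM in library 2, against 240.5 TPM in library 1, with 9215 counts in library 2 and 18917 in library 1, a high count for its TPM because its transcript is long. Of 10 epidermal markers, 3 reached 1 TPM in both libraries, they summed to 104 TPM in library 2, against 9.65 TPM in library 1, and Krt1, Flg and Klk5 were at 0 counts in both. Most of the library 2 sum lay in Sbsn, at 39.4 TPM, and in the keratin genes Krt5, at 32.4 TPM, and Krt14, at 29.02 TPM. The part of epidermal RNA in the Spink5 value was not tested. Spink13, which in the rat encodes an epididymal protein that binds sperm, was at 17.2 TPM in library 2, against 16.04 TPM in library 1.

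The other 5 Kazal genes were at the limit of detection, each under 10 counts over both libraries. Spink4, known from intestinal goblet cells, was at 1.74 TPM in library 2 against 0.83 in library 1, from 5 counts in library 2 and 3 in library 1. Spink7 was listed at 0 TPM in library 2 against 1.47 in library 1, from 0 counts in library 2 and 2 in library 1. Spink1, the trypsin inhibitor of the pancreas, had 1 count in library 2 and 0 in library 1. Spink6 and Spink14 had 0 counts in both libraries. A count of 0 allows up to 0.556 TPM of Spink6, 0.606 TPM of Spink14 and 2.65 TPM of Spink7 in library 2, taking 3 counts as the limit and covering counting error only. For Spink7, with its short transcript, 0 counts in library 2 thus do not show that its level was under 1 TPM. Exocrine pancreas markers were low too, with 1 of 10 at 1 TPM or more in both libraries and sums of 16.4 TPM in library 2 against 1.7 in library 1.

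All 5 Kunitz genes were detected in both libraries. Spint4 led them, at 910.3 TPM in library 2, against 512 TPM in library 1. Spint5 was at 317 TPM in library 2, against 334 TPM in library 1. Spint3 was at 201 TPM in library 2, against 18.3 TPM in library 1. Spint3 differed more between the libraries than Spint4 and Spint5.

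Spint1 and Spint2 encode HAI-1 and HAI-2, membrane-anchored inhibitors of epithelial serine proteases such as matriptase and prostasin and of the activator of hepatocyte growth factor. Spint2 was at 371 TPM in library 2, against 26.5 TPM in library 1, from 5526 counts in library 2 and 515 in library 1. Spint1 was at 35.6 TPM in library 2, against 17.3 TPM in library 1. Of the library 1 level, 27.6% and 30.8% lay on Spint1-204 and Spint1-205, which have no annotated coding sequence, against 5.65% and 1.85% in library 2. General epithelial markers were detected in both libraries for 11 of 12 genes. Their sum was 1216 TPM in library 2, against 199 TPM in library 1. By scaled counts, described below, 8 of these 12 markers exceeded library 1 by 2-fold or more, against 31.3% of all genes. These 8 all had more than 50% GC, and 62.1% of all genes at 50% GC or more were higher. Epcam, Cdh1, Esrp1 and Grhl2 did not, with log2 ratios between -0.09 and 0.28. Once the trend with GC content was removed, also described below, 3 markers were higher and 1 lower, against 12.0% and 9.96% of all genes. Spint2 then stood at 2.01 in place of 3.04, and Spint1 at -1.05 in place of 1.15, an uncertain value. The part of epithelial RNA in the Spint1 and Spint2 values was not tested.

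Wfdc10 led the WAP genes in library 2, and Wfdc13 led them in library 1. Wfdc10 was at 2400.05 TPM in library 2, against 222 TPM in library 1, from 8851 counts in library 2 and 1031 in library 1. Wfdc13 was at 649 TPM in library 2, against 376 TPM in library 1. Wfdc15b, a mouse protein with a single WAP domain and described antibacterial activity, was at 618 TPM in library 2, against 118 TPM in library 1. Wfdc16 and Eppin followed at nearly equal levels. Wfdc16 was at 250.1 TPM in library 2, against 179.8 TPM in library 1. Eppin, whose product coats sperm and binds semenogelin in humans, was at 239 TPM in library 2, against 181 TPM in library 1. Wfdc9 was at 249.8 TPM in library 2, against 26.7 TPM in library 1, so its place beside Eppin holds for library 2 and not for library 1.

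Wfdc8 was at 204 TPM in library 2, against 80.1 TPM in library 1, Wfdc6b at 181 TPM in library 2 against 47.95 in library 1, and Wfdc6a at 99.1 TPM in library 2 against 41.7 in library 1. The exons of Wfdc8 and Wfdc6b overlap by 105 bases on opposite strands. Since it is not stated whether counting used strand, the values of this pair are uncertain for that stretch. Wfdc6a and Wfdc6b together were at 279.7 TPM in library 2, against 89.7 TPM in library 1. Wfdc11 was at 34.6 TPM in library 2, against 27.7 TPM in library 1.

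Several further WAP genes were under 100 TPM in both libraries. Slpi, an inhibitor of neutrophil elastase and cathepsin G in mucosal fluids, was at 92.2 TPM in library 2, against 3.23 TPM in library 1. Wfdc21 was at 92.9 TPM in library 2, against 23.7 TPM in library 1. Wfdc17, described in activated mouse macrophages, was at 32.1 TPM in library 2, against 27.9 TPM in library 1. All 12 macrophage markers were detected in both libraries and summed to 977 TPM in library 2, against 297 TPM in library 1. Neutrophil markers were detected in both for 4 of 10 genes, summed to 82.5 TPM in library 2, against 23.5 TPM in library 1, and Mpo, Ly6g and Ngp were at 0 counts in both. Of the neutrophil sum, the lactoferrin gene Ltf, which epithelia also express, held 73.3 TPM in library 2 against 18.5 in library 1.

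Wfdc1, first described in prostate stroma, was at 23.6 TPM in library 2, against 3.25 TPM in library 1. Wfdc2, which encodes the human epididymis protein HE4, was at 12.8 TPM in library 2, against 1.35 TPM in library 1. Its level in library 1 rests on 5 counts, against 110 in library 2. Wfdc3 was at 10.2 TPM in library 2, against 1.59 TPM in library 1, and Wfdc15a at 4.91 TPM in library 2 against 1.36 in library 1. The 3 remaining WAP genes were under 10 counts. Wfdc18, known from the mouse mammary gland, had 4 counts in library 2 and 0 in library 1, and Wfdc12 had 1 count in library 2 and 2 in library 1. Wfdc5 had 0 counts in both libraries, which allows up to 0.159 TPM in library 2. Mammary markers summed to 32.4 TPM in library 2 against 1.45 in library 1, and 1 of 8 reached 1 TPM in both. Of the library 2 sum, Krt14, a keratin gene of basal epithelial cells, held 29.02 TPM, while Csn3, Glycam1 and Csn1s1 were at 0 counts in both libraries.

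Of the 37 members, 19 lie on chromosome 2 in a pair of blocks. The first block runs from Wfdc5 to Slpi over 213 kb (chr2:164176327-164389095) and holds 5 members. The second runs from Wfdc2 to Wfdc3 over 184 kb (chr2:164562413-164745931) and holds 14. All 14 members of the second block reached 1 TPM in both libraries, against 30.5% of all mouse genes. They summed to 5759 TPM in library 2, against 2051 TPM in library 1. In the first block, 3 of 5 were detected, and Wfdc15b accounted for most of its 716 TPM in library 2, against 123 TPM in library 1.

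Neighbouring genes that are no members were also measured. From the list of 22 locus neighbours, 20 matched a gene. Of these, 10 reached 1 TPM in both libraries, against 30.5% of all mouse genes, with none at 100 TPM in both. The seminal vesicle secretion genes Svs2, Svs3a, Svs3b and Svs4, between Wfdc15b and Slpi, had 0 counts in both libraries. Svs5, in the same stretch, was at 1.51 TPM in library 2, against 1.46 TPM in library 1. Among the housekeeping genes that lie between the blocks, Pigt, which shares reads and is uncertain, was at 62.6 TPM in library 2, against 12.6 TPM in library 1. Next on the list by mean TPM over both libraries were Tomm34, at 40.7 TPM in library 2, against 11.6 TPM in library 1, and Stk4, at 17.3 TPM in library 2 against 24.5 in library 1.

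**Figure D2:**
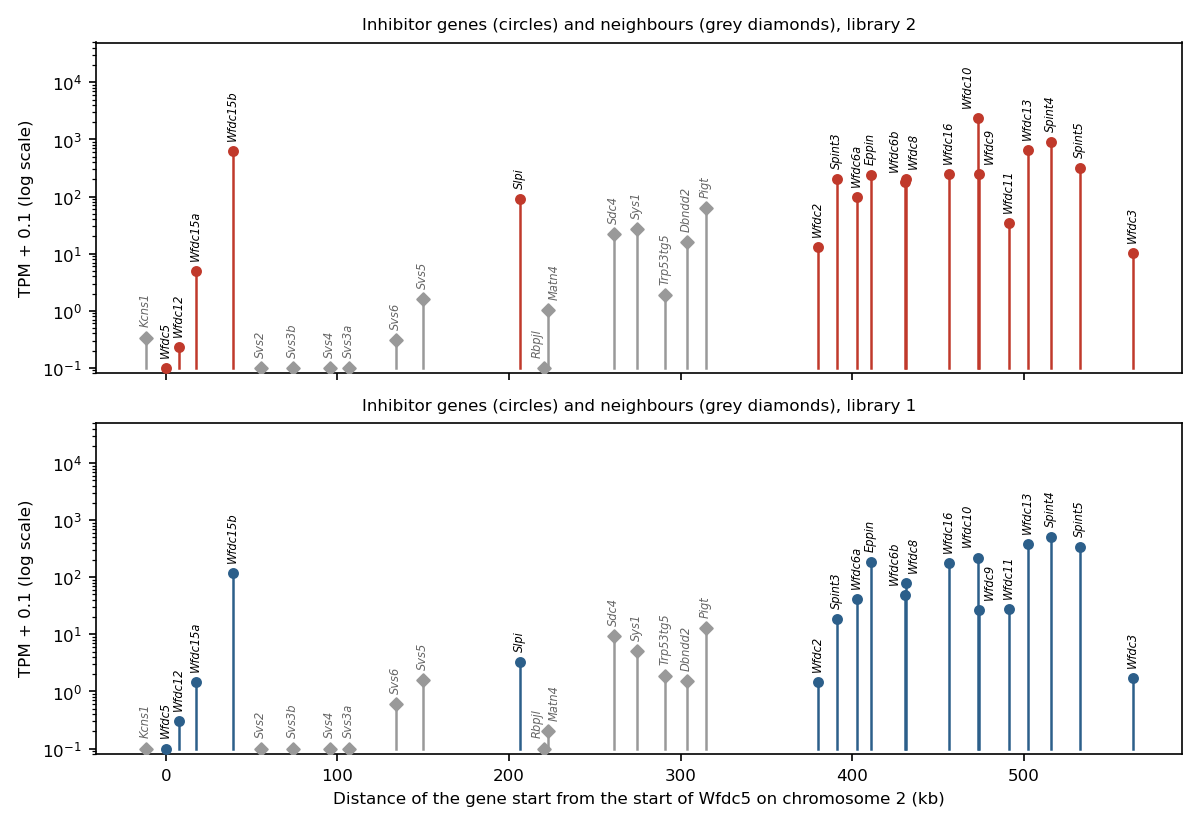
TPM + 0.1 on a log axis of members (circles) and listed neighbours (grey diamonds) by distance in kb from the start of Wfdc5 on chromosome 2, with library 2 above and library 1 below. Members between Spint3 and Spint5 form a run between 34.6 and 2400.05 TPM in library 2, while Svs2, Svs3a, Svs3b and Svs4 lie at 0 in both libraries.

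On chromosome 18 lie 9 Kazal genes, with abundant and silent members side by side. Spink5, Spink14, Spink6, Spink12 and Spink11 lie within 233 kb, and Spink14 and Spink6 were at 0 counts in both libraries beside Spink12 at 329 TPM in library 2, against 361 TPM in library 1. Spink10, Spink7 and Spink13 lie within 192 kb. Of these, Spink7 had 2 counts in all while Spink10 stood at 285 TPM in library 2, against 318 TPM in library 1.

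The count ratio of library 2 over library 1 varied widely among the members. Counts were scaled by TMM, and a difference counted when it reached 2-fold at 10 or more counts over both libraries. This is a comparison of 2 libraries with 1 on each side, so it has no replicate check and no p-value, and the 95% exact intervals cover counting error only. Of 29 members with enough counts, 13 were at least 2-fold higher in library 2, or 44.8%, against 31.3% of 18275 genes. At least 2-fold lower in library 2 were 2 members, or 6.90%, against 19.9% of all genes. With total counts in place of TMM, which set the median log2 ratio of all genes at 0.46 in place of 0.02, the members split into 14 higher and 0 lower. All genes shifted the same way, to 7024 higher and 1393 lower of the 18275, from 5724 and 3644 with TMM. The median log2 ratio was 0.52 over the 29 members and 0.02 over all genes.

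Slpi had the highest log2 ratio, 4.08 (95% interval 3.63 to 4.61), from 854 counts in library 2 and 38 in library 1. Wfdc2 stood at 3.94, with an interval of 2.81 to 5.72 that reflects its 5 counts in library 1. Spint2 followed at 3.04 (2.91 to 3.17). Wfdc9, Spint3 and Wfdc10 had nearly the same ratio, at 2.75, 2.72 and 2.71, and their intervals overlapped. Wfdc9 and Wfdc10 are neighbours on opposite strands, with no exon in common. Wfdc1 was at 2.11, Wfdc15b at 1.73, Wfdc3 at 1.38, Wfdc21 at 1.25, Wfdc6b at 1.18, Spint1 at 1.15 and Wfdc15a at 1.06. The intervals of Wfdc3, Wfdc21 and Spint1 reached below 2-fold, and that of Wfdc15a, which had 20 counts in library 2 and 7 in library 1, reached below no difference.

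None of the Kazal genes was 2-fold higher in library 2. Spink5 was lower, with a log2 ratio of -1.42 (-1.46 to -1.39), and so was Spink11, at -1.05 (-1.08 to -1.02). Spink8 was at 0.29 (0.26 to 0.32), while its TPM, which the mitochondrial share moves, was 2.03 times as high in library 2. By family, 0 of 7 Kazal, 3 of 5 Kunitz and 10 of 17 WAP genes with enough counts were higher in library 2, against 31.3% of all genes. The share among all genes depends on GC content: 0.846% of genes under 45% GC were higher, 3.56% from 45% to 50% and 62.1% at 50% or more. Among members with enough counts in the same ranges, 0 of 6, 5 of 12 and 8 of 11 were higher. The 7 Kazal genes lay between 31.6% and 47.6% GC, so their count is at the background of such genes. With the GC trend removed as described below, 0 Kazal, 2 Kunitz and 8 WAP genes were higher, against 12.0% of all genes. In that setting 1 Kunitz gene was lower, against 9.96% of all genes. The second chromosome 2 block held both kinds: 6 of its 14 members were higher and 8 stayed within 2-fold, among them Eppin at -0.33, Wfdc13 at 0.05 and Spint4 at 0.10.

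**Figure D3:**
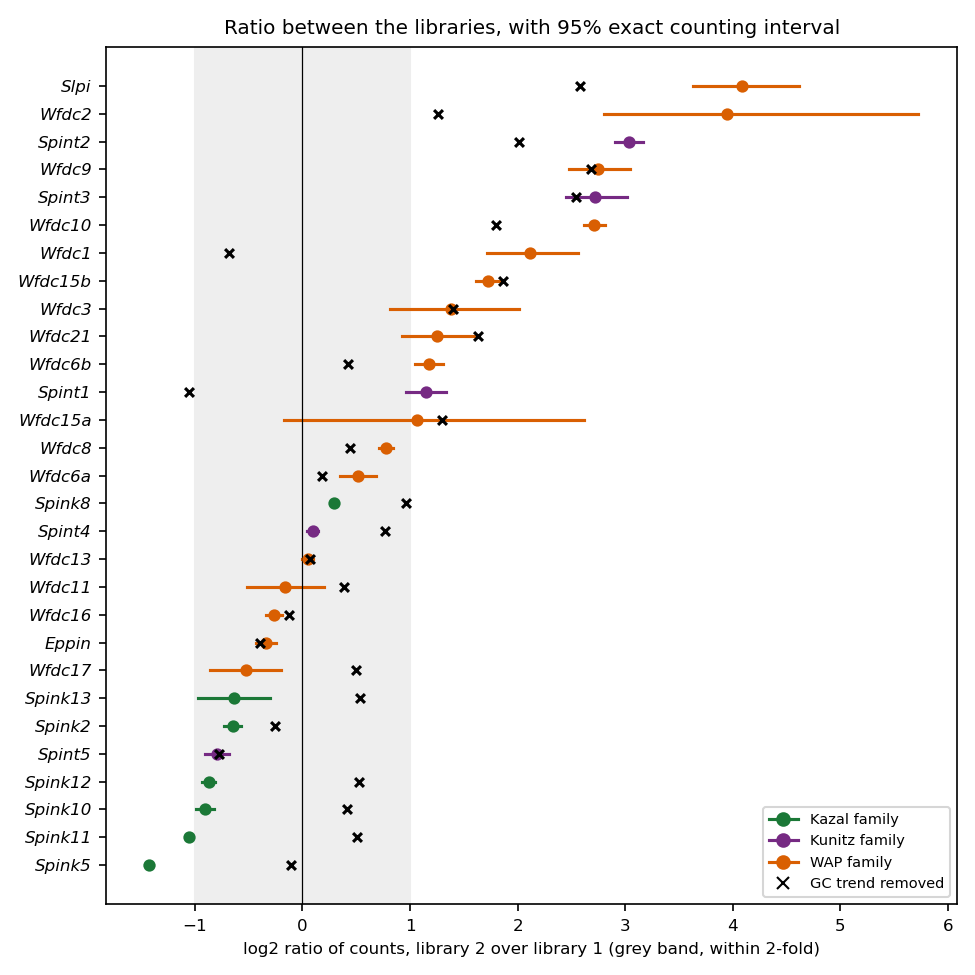
Log2 ratio of counts of library 2 over library 1 for the 29 members with enough counts (points), with 95% exact counting intervals (bars), the range within 2-fold in grey and the ratio after the GC trend was removed as crosses. Slpi at 4.08 and Spink5 at -1.42 mark the ends, and the crosses of Spint1 and Wfdc1 lie below 0.

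The ratios went with the GC content of the transcripts, as they did across all genes. Over the 29 members Pearson's r was 0.74 and Spearman's rho 0.78, and over 18147 genes 0.79 and 0.86; the points share the same pair of libraries, and genes are not independent replicates. Members under 45% GC had a median log2 ratio of -0.89, those from 45% to 50% 0.19, and those at 50% or more 2.11. All genes in the same ranges had medians of -1.16, -0.43 and 1.47. Spink11 had the lowest GC content, 31.6%, and Wfdc1 the highest, 57.9%.

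With the median ratio of genes of like GC content subtracted, 10 members were at least 2-fold higher, or 34.5%, against 12.0% of all genes, and 1 was lower, against 9.96%. Wfdc9 was then the highest at 2.69, followed by Slpi at 2.58, Spint3 at 2.54 and Spint2 at 2.01. Wfdc15b stood at 1.87, Wfdc10 at 1.80, Wfdc21 at 1.64, Wfdc3 at 1.40, Wfdc15a at 1.30 and Wfdc2 at 1.26. Spint1 stood at -1.05 in place of 1.15, and Wfdc1 at -0.69 in place of 2.11. Spink5 and Spink11 no longer reached 2-fold, at -0.10 and 0.51, and neither did Wfdc6b at 0.42. The subtraction leaves the wide spread of GC-rich genes in place, so the values of Spint1, Wfdc1 and Wfdc2, at 56.4%, 57.9% and 57.5% GC, are uncertain.

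**Figure D4:**
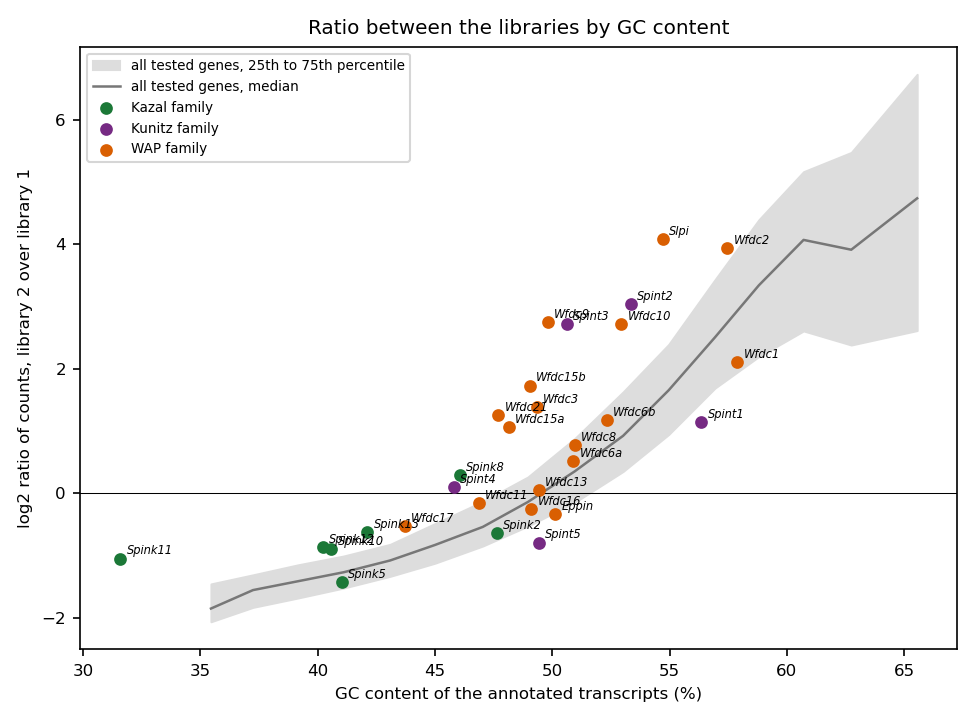
Log2 ratio of counts of library 2 over library 1 against GC content of the annotated transcripts, for 29 members coloured by family, with the median and the 25th to 75th percentile of all tested genes in grey. Slpi, Wfdc9, Spint3, Spint2, Wfdc10 and Wfdc15b are among the members above the grey band, and Spint1 at 1.15 and Spint5 at -0.79 are among those below it.

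Transcript shares were estimated by the authors as percents of a gene's TPM, and in several members they differed between the libraries. In Wfdc8, which has 3 annotated transcripts, Wfdc8-203 took 48.8% in library 2, against 40.4% in library 1, Wfdc8-202 42.8% in library 2 against 5.24% in library 1, and Wfdc8-201 8.33% in library 2 against 54.4% in library 1. In Wfdc15b, Wfdc15b-202 took 77.1% in library 2, against 57% in library 1, while Wfdc15b-203 took 0% in library 2 against 35.9% in library 1. Spint1 was spread over 4 transcripts: the longer Spint1-201 took 56.9% in library 2 against 25.1% in library 1, and Spint1-203 35.6% in library 2 against 16.4% in library 1. The short Spint1-204, of 492 bases, took 5.65% in library 2 against 27.6% in library 1, and Spint1-205, of 640 bases, 1.85% in library 2 against 30.8% in library 1. Neither of these short transcripts has an annotated coding sequence. Reads of a gene are divided among its transcripts, so the shares are uncertain where counts are low.

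In Wfdc2 and Wfdc3 the leading transcript also differed between the libraries, at 5 and 32 counts in library 1. Wfdc3-203, which led Wfdc3 in library 1 at 64.35%, has no annotated coding sequence. Among the members with the same leading transcript in both libraries, Spink2-201 took 99.7% in library 2, against 99.6% in library 1, Spink11-201 98.1% in library 2 against 97.2% in library 1, and Spink10-206 95.1% in library 2 against 96.7% in library 1. Spint2-202 took 94.3% in library 2, against 79.2% in library 1, and Wfdc9-202 80.7% in library 2 against 63.7% in library 1. For Wfdc11, Wfdc11-201 took 65.8% in library 2, against 52.3% in library 1. Where the transcripts differ in length, TPM and counts part ways: the TPM of Spint1 was 2.06 times as high in library 2, from 942 counts in library 2 and 325 in library 1.

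**Figure D5:**
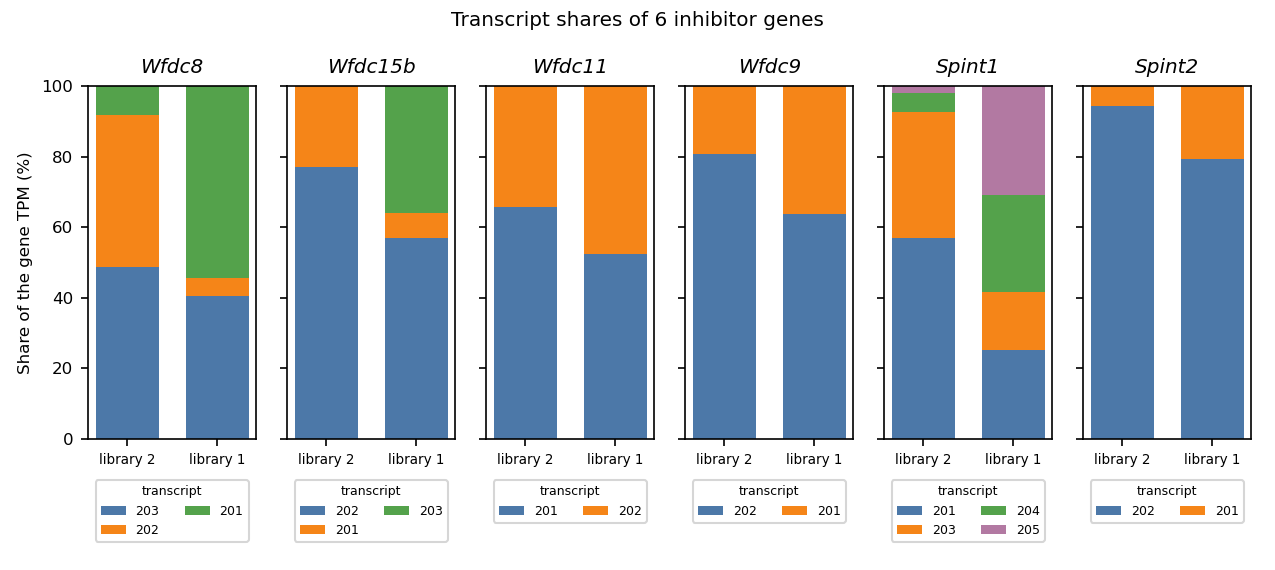
Share of the gene's TPM (percent) taken by each annotated transcript of 6 members, with library 2 as the left bar and library 1 as the right bar of each panel. Wfdc8-201 takes 8.33% in library 2, against 54.4% in library 1, and Wfdc8-202 42.8% in library 2 against 5.24% in library 1.

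Serine proteases that such inhibitors can meet were listed with activators, the growth factor gene Hgf, its receptor gene Met and the metalloprotease genes Mmp2 and Mmp9. Of these 30 genes, 12 reached 1 TPM in both libraries, against 30.5% of all mouse genes, and none reached 100 TPM in both. They summed to 319.5 TPM in library 2, against 58.5 TPM in library 1. St14, which encodes matriptase, was at 57.9 TPM in library 2, against 5.27 TPM in library 1, with a log2 ratio of 3.77. Plau, the urokinase gene, was at 35.4 TPM in library 2 against 14.8 in library 1 with a ratio of 0.52. Furin, a proprotein convertase gene, was at 44.8 TPM in library 2 against 1.41 in library 1 with a ratio of 4.07. With the GC trend removed the ratios of St14, Plau and Furin were 2.26, 0.54 and 1.27. Prss8, the prostasin gene, was at 38.8 TPM in library 2, against 1.4 TPM in library 1, and Hgfac, which encodes the hepatocyte growth factor activator, at 32.4 TPM in library 2 against 0.76 in library 1. St14, Furin and Prss8 were above Spint1 in library 2 and below it in library 1. Prss8 and Hgfac stand on the list and were singled out after their values were seen, because Spint1 and Spint2 act on their products. Acr, the acrosin gene, stood at 2.32 TPM in library 2, against 0.49 TPM in library 1, far below its inhibitor gene Spink2. Of 18 genes of this mixed list with enough counts, 12 were higher by 2-fold or more in library 2 and 0 lower, against 31.3% and 19.9% of all genes, with a median log2 ratio of 1.79. With the GC trend removed 8 were higher, against 12.0% of all genes. These include Furin, Prss8 and Hgfac, at 57.7%, 56.8% and 59.1% GC, whose values are uncertain like those of other GC-rich genes. Klk5, Klk7, Ctsg, Prss1 and Tmprss11e were at 0 counts in both libraries. Elane, the neutrophil elastase gene, had 6 counts in library 2 and 0 in library 1.

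Genes outside the symbol rule that carry a Kazal, Kunitz or WAP domain were listed beside the members. Of these 28 genes, 21 reached 1 TPM in both libraries, against 30.5% of all mouse genes. The matrix protein gene Sparc led them at 1226 TPM in library 2, against 553 TPM in library 1. Igfbp7, an insulin-like growth factor binding protein gene, was at 375 TPM in library 2, against 209 TPM in library 1, and Aplp2, of the amyloid precursor family, at 280.4 TPM in library 2 against 181 in library 1. Spinkl, a Kazal gene on the list whose symbol lacks the digit, was at 16.6 TPM in library 2, against 27.5 TPM in library 1. Of 26 listed genes with enough counts, 11 were higher by 2-fold or more in library 2 and 5 lower, against 31.3% and 19.9% of all genes. With the GC trend removed 1 was higher and 1 lower, against 12.0% and 9.96% of all genes. The median log2 ratio of this list with the GC trend removed was -0.07, against 0.51 over the 29 members.

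Promoter windows from RefSeq, 250 bases before to 50 after a start in GRCm38.p6, matched 22 of the 37 members. Members with few CG dinucleotides in the window included, chosen after their values were seen, Wfdc16 and Slpi with 2 each, and Eppin, Spint3 and Spint4 with 4 each. Spint1 had 28, Spint2 26 and Wfdc2 16, and these 3 held GGGCGG on either strand, as did 1 of the 3 windows of Spink2. Over all 27 windows of members the median was 7, the same as over 32851 windows of all genes. The letters TATAAA, searched on both strands, were in 14.8% of members' windows and in 13.6% of all windows. GGGCGG was in 18.5% of members' windows and in 35.7% of all windows.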

How the data were processed

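The authors deposited expected counts, TPM and FPKM per gene and per transcript and the percent of a gene's TPM per transcript, per the file headers, on mm10 with annotation M4. Which aligner and quantifier made them is not given in the sources used here. TPM, posterior means included, and FPKM are scaled per length by the authors. Symbols, coordinates and GC content (all transcripts of a gene) came from GENCODE M21, and 42462 of 43346 identifiers matched. Entries that are no mouse gene (26345) were left out; they held 2 counts in library 2, against 0 in library 1.

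Expected counts were rounded. Genes with 10 or more counts over both libraries had a log2 ratio with 0.5 added, scaled by TMM (edgeR 4.0.16), with 95% Clopper-Pearson intervals. Libraries are technical, so no p-values were computed. GC medians were taken in 40 bins. A count within 0.005 of a whole number was called whole. A 1 kb transcript reaches 3 counts at 0.224 TPM in library 2, against 0.175 TPM in library 1. The steps were tested on simulated data. Identity came from global alignment.

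Members and lists were chosen with earlier results of these data known. Members at a mean of 1 TPM or at 10 counts are named with values, the rest with counts, and up to 3 genes per related list by mean TPM, with exceptions stated or chosen after their values were seen. From marker lists, genes at 0 counts are named, which departs from that rule. Muc16, Pi3 and Semg1 had no match. Alternatives covered scaling, filters, added counts, posterior means, FPKM, GC and each library alone. Software was R 4.3.3 with DESeq2 1.42.0, and Python 3.11.15 with pandas 2.3.3, scipy 1.17.1 and numpy 2.4.6.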

Additional observations from a re-analysis of the deposited data

How the results depend on the processing

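Each library alone gave 30 members at 1 TPM or more, and the other limits and units gave 24 to 30. Summed TPM, 10899 on average over both libraries, was 13845 without library 1 and 7953 without library 2, and 16460.5 when rescaled without the mitochondrial genes. The 13 members at least 2-fold higher in library 2 became 7 at a 4-fold limit. The 2 members lower became 0 with total counts, 4 with no filter on low counts, 1 with the GC trend removed, 7 at a 1.5-fold limit and 0 at a 4-fold limit. Over all genes, 5724 were higher and 3644 lower. Total counts gave 7024 and 1393, and removal of the GC trend gave 2183 and 1808. The median log2 ratio of the members, 0.52, was 0.96 with total counts and 0.37 at 100 counts or more. With the GC trend removed, 24 of 29 members kept their call and 8 changed sign, of which Spink11 (0.51), Spint1 (-1.05) and Wfdc1 (-0.69) had been past 2-fold; the neighbour Pigt (-0.0553) changed sign too. The subtraction itself makes these shifts. With DESeq2 size factors and with posterior mean counts all 29 calls were kept. Depth limits Wfdc2, Wfdc15a and the 8 members under 10 counts. No paired analysis was possible because the labels hold a single group.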
